A study of Homo sapiens with 9 samples.

Results

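The 10 genes described here belong to the YAP and TEAD branch of the Hippo pathway, and they were taken by name from a table of 58735 genes: YAP1, WWTR1, TEAD1, TEAD4, CYR61, CTGF, ANKRD1, AMOTL2, AJUBA, and LATS2. YAP1 and WWTR1 (the gene of TAZ) encode coactivators that cannot bind DNA themselves and reach their target genes through TEAD transcription factors. The Hippo kinases, LATS1 and LATS2 last among them, phosphorylate YAP and TAZ and keep them out of the nucleus, so that much of the pathway is set at the protein level and its output is usually read from target genes such as CYR61, CTGF, ANKRD1, and AMOTL2. Several targets, among them AMOTL2, AJUBA, and LATS2, encode proteins that act on the pathway in turn.

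RNA-seq was performed on the human colorectal carcinoma cell line HCT116, with 3 libraries in each of 3 groups. The A20-WT cells carry no edit of TNFAIP3, the gene of the ubiquitin-editing enzyme A20. The A20-KO cells are the knockout line, for which sgRNA in a lentiviral CRISPR vector is described. The A20-OE cells, named so in the sample labels, are the A20-KO-rescue cells, and so carry both the knockout and added A20; the A20 vector described has a CMV promoter, which is active in most cells. Whether the lines are single clones, and whether the 3 libraries of a group came from separate cultures, was not given in the sources used here, so the p-values measure only the spread between these libraries. The designed comparisons were A20-KO with A20-WT and A20-OE with A20-KO, and A20-OE with A20-WT is given beside them.

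TNFAIP3, the targeted gene, was no lower in A20-KO than in A20-WT, so its RNA level does not by itself bear out the A20-KO label. The paper has a panel of A20 expression in its knockout and rescue cells, which is not part of these data. Its level was 0.802 ± 0.0665 FPKM (SD, n = 3) in A20-WT, 1.71 ± 0.593 in A20-KO, and 60.6 ± 5.25 in A20-OE. By limma on log2(FPKM + 0.1), the test used throughout, it was higher in A20-KO than in A20-WT (log2 difference 0.95, SE 0.23, adjusted p = 0.018) and higher in A20-OE than in A20-KO (5.13, SE 0.23, adjusted p = 2.1e-05). The first of these was lost under 4 of 20 alternatives, with only the compared groups fitted (adjusted p = 0.083) and without A20-WT replicate 2 (0.054) or A20-KO replicate 1 (0.07) or 2 (0.057), with log2 differences from 0.56 to 1.25 over all of them. Small CRISPR edits can leave a transcript countable, so the counts do not show whether the edit is present. A20-KO below stands for the libraries labelled A20-KO, and directions drawn from them rest on those labels.

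The libraries held between 23406222 and 24963691 reads in genes. The general epithelial markers EPCAM (130 ± 9.24 FPKM in A20-WT) and KRT8 (376 ± 83.1) were abundant. Of the intestinal markers, CDX2 had 5.73 ± 1.92 FPKM in A20-WT and KRT20 0.782 ± 0.0844, and VIL1 had at most 9 reads in any library and none in A20-WT. Of 9 stromal, endothelial, and immune markers, 2 reached the expression threshold of a mean of 0.1 FPKM, and DCN, CD3E, PTPRC, and CD68 had at most 5 reads in any library. COL1A1 alone made up most of their summed level, which lay between 4.75 and 5.99 FPKM in A20-WT, 12.9 and 15.3 in A20-KO, and 11.4 and 12.7 in A20-OE. Without COL1A1 the sums lay between 0.192 and 0.495 FPKM over the 9 libraries. In bulk RNA, fewer cells of a type and less RNA per cell cannot be told apart.

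The libraries also differed by gene length. A20-KO replicate 3 stood apart: its 435 protein-coding genes under 1.5 kb had a median log2 deviation of 0.45 from the mean of the 9 libraries, and its 2272 genes over 8 kb one of -0.25. A20-WT replicate 1 deviated the other way, by -0.38 in the short genes and 0.12 in the long ones. The 10 genes span 1979 bases (ANKRD1) to 10279 bases (TEAD1), and within the A20-KO group replicate 3 was the lowest library for 7 of the 9 expressed ones. Replicate 3 was also the lowest for 5 of the 9 in A20-OE, and in A20-WT replicates 1 and 3 were each the lowest for 4. Where leaving out A20-KO replicate 3, or removing the length trend, moved 1 of the 10 genes across the threshold, the value is given with that gene.

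**Figure D1:**
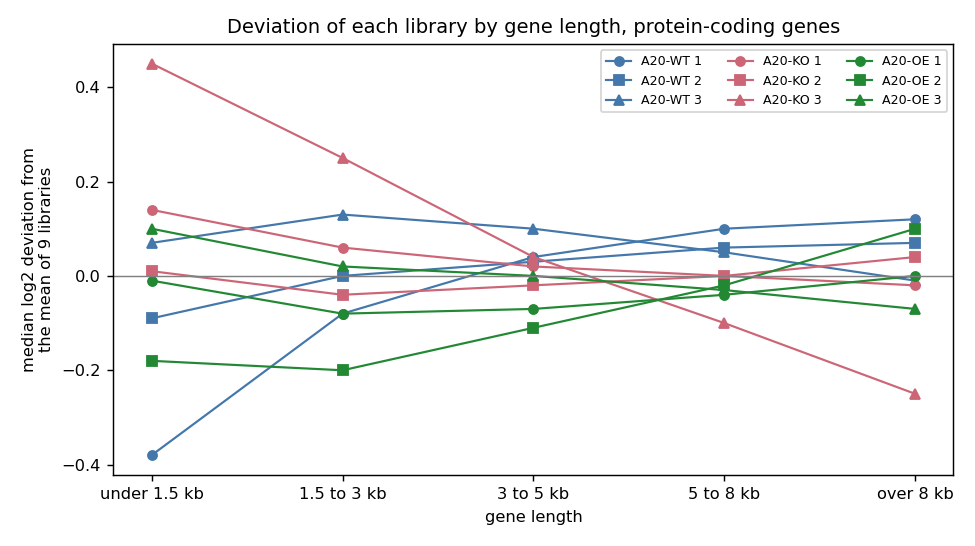
Median log2 deviation of each library from the mean of the 9 libraries (y axis) in protein-coding genes of 5 length classes (x axis), 1 line per library, coloured by group. A20-KO replicate 3 runs from 0.45 in the shortest class to -0.25 in the longest, and A20-WT replicate 1 from -0.38 to 0.12.

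Letters of the TEAD binding site were looked for in the promoters. The letters GGAATG, or CATTCC on the other strand, were searched in RefSeq promoter windows of GRCh38.p14, each holding 250 bases before and 50 bases after a gene start. The letters occurred in 14% of all 35116 windows. Of the 10 genes 7 were matched, with 10 windows, and TEAD1, TEAD4, and CYR61 were not. The letters were in 6 of the 10 windows, 1 each for CTGF, ANKRD1, AMOTL2, AJUBA, YAP1, and LATS2. The AP-1 letters TGACTCA or TGAGTCA were in none of these 10 windows and in 4.95% of all. Such a match is a description of letters, and binding was not measured. Of the genes with the letters, YAP1, ANKRD1, and AJUBA did not pass the test in A20-OE against A20-KO, and their stretches are not printed. Whether the letters go with the differences was not tested. The stretches below, with the letters in capitals, come from the genes that were higher in A20-OE than in A20-KO.
CTGF, chr6:131951524-131951553, minus strand, match starting 169 bases before the start: ttttcagacggaGGAATGctgagtgtcaag
CTGF, chr6:131951459-131951488, minus strand, matches starting 104 and 95 bases before the start: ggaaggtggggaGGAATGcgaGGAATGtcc
AMOTL2, chr3:134374499-134374528, minus strand, match starting 69 bases before an alternative start: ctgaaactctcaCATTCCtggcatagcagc
LATS2, chr13:21061560-21061589, minus strand, match just after the start: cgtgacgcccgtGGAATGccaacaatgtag

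Of the 10 genes, 9 were expressed above 0.1 FPKM on average, and ANKRD1 was not. In A20-KO against A20-WT, 3 of the 9 genes fell at an adjusted p under 0.05 (TEAD1, CTGF, and AMOTL2) and 0 rose. Over all 21636 genes tested, 22.3% passed in that comparison, 11.3% being higher and 11% lower. The median log2 difference of the 9 genes was -0.47, against -0.01 for all genes tested. In A20-OE against A20-KO, 3 of the 9 rose (CTGF, AMOTL2, and LATS2) and 0 fell, against 8.97% of all genes, 4.43% being higher and 4.54% lower, with medians of 0.17 and 0.01. In A20-OE against A20-WT, 1 rose (LATS2) and 1 fell (TEAD4), against 31.1% of all genes, 15.7% being higher and 15.4% lower, with medians of 0.04 and 0.03. All these differences were modest: none of the 9 genes also had an absolute log2 fold change above 1 in any comparison, by limma or limma-voom, also at an unadjusted p under 0.05, whereas 6.99%, 2.39%, and 11.9% of all genes passed both limits in the 3 comparisons. At an unadjusted p under 0.05 alone, 5, 4, and 6 of the 9 genes passed, against 35.5%, 25.5%, and 41.5% of all genes tested. The 3 libraries of one group lay wholly above or below those of the other for 4, 5, and 6 of the 9 genes in the 3 comparisons, against 38.1%, 35.4%, and 45.3% of all genes tested.

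**Figure D2:**
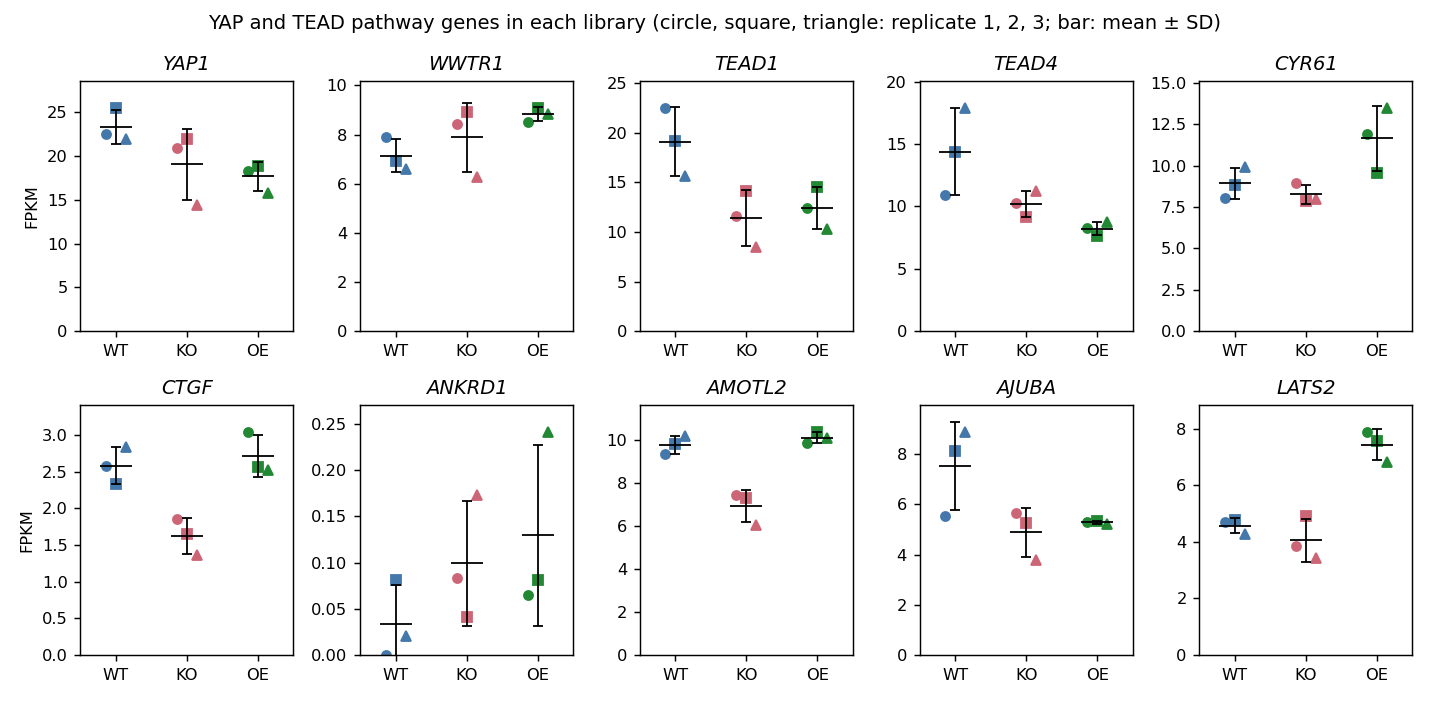
FPKM (y axis, from 0, a separate scale per gene) of the 10 genes in the WT, KO, and OE libraries (x axis), with 1 point per library and a bar for the mean ± SD of 3 libraries. CTGF and AMOTL2 are lowest in all 3 A20-KO libraries, LATS2 is highest in all 3 A20-OE libraries, and ANKRD1 does not exceed 0.242 FPKM.

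YAP1 (ENSG00000137693, chromosome 11, 102110461 to 102233423, plus strand, GRCh38), the main coactivator, was the more abundant of the pair. Its level was 22.5, 25.5, and 21.9 FPKM in A20-WT, 20.9, 21.9, and 14.4 in A20-KO, and 18.3, 18.9, and 15.8 in A20-OE. The A20-WT libraries lay above those of both other groups, only just so over A20-KO, and the low A20-KO value was that of replicate 3. The difference of A20-KO from A20-WT did not pass the test (log2 -0.31, 95% interval -0.67 to 0.05, adjusted p = 0.20), and without A20-KO replicate 3 it was -0.12. A20-OE differed from A20-WT by -0.40 (interval -0.76 to -0.04, adjusted p = 0.090; 0.018 without A20-KO replicate 3 and 0.036 with only the compared groups fitted) and from A20-KO by -0.09 (interval -0.45 to 0.27).

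WWTR1 (ENSG00000018408, chromosome 3, 149517235 to 149736714, minus strand) encodes TAZ, the paralogue of YAP. It was measured at 7.92, 6.91, and 6.61 FPKM in A20-WT, 8.45, 8.94, and 6.28 in A20-KO, and 8.53, 9.09, and 8.85 in A20-OE. The A20-OE libraries lay above all A20-WT libraries, and the A20-KO libraries overlapped both groups. No comparison passed the test, the largest being A20-OE against A20-WT (log2 0.30, interval -0.01 to 0.62, adjusted p = 0.13). It passed with the gene length trend removed (0.35, adjusted p = 0.026) and without A20-KO replicate 3 (0.30, adjusted p = 0.038).

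The mean level of YAP1 was lower and that of WWTR1 higher outside A20-WT, and the ratio of the levels was therefore computed in each library. The YAP1 to WWTR1 ratio of FPKM was 2.84, 3.69, and 3.32 in A20-WT, 2.47, 2.45, and 2.29 in A20-KO, and 2.15, 2.08, and 1.78 in A20-OE. The groups did not overlap in any of the 3 pairs (exact two-sided permutation p = 0.1 each, the smallest that 3 libraries against 3 allow). The ratio was computed after the levels had been seen. Both genes share exonic bases with an antisense RNA, AP000942.2 over 9.97% of the YAP1 exons and WWTR1-AS1 over 9.45% of the WWTR1 exons, and whether reads were counted by strand was not given in the sources used here.

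The TEAD factors carry the DNA-binding domain of the complex. TEAD1 (ENSG00000187079, chromosome 11, 12674591 to 12944483, plus strand) was measured at 22.5, 19.2, and 15.6 FPKM in A20-WT, 11.6, 14.1, and 8.49 in A20-KO, and 12.4, 14.5, and 10.3 in A20-OE. Every A20-WT library lay above every library of the other groups, which overlapped each other. TEAD1 fell 1.69-fold in A20-KO against A20-WT (log2 -0.75, SE 0.21, adjusted p = 0.031). This call did not hold when A20-KO replicate 1 (adjusted p = 0.075) or 3 (0.094), A20-WT replicate 1 (0.098) or 2 (0.087), or A20-OE replicate 1 (0.056) was left out, nor with only the compared groups fitted (0.077) or with no filter on low values (0.058). With the gene length trend removed the log2 difference was -0.63 (adjusted p = 0.016). A20-OE differed from A20-KO by 0.13 (interval -0.34 to 0.61) and from A20-WT by -0.62 (adjusted p = 0.051). The latter passed under 9 of the 20 alternatives, among them the length trend removed (-0.58, adjusted p = 0.017), limma-voom (0.016), and A20-KO replicate 3 left out (0.029), and its adjusted p reached 0.16 without A20-OE replicate 3.

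TEAD4 (ENSG00000197905, chromosome 12, 2959330 to 3040673, plus strand), a paralogue of TEAD1, had levels of 10.9, 14.4, and 17.9 FPKM in A20-WT, 10.3, 9.15, and 11.2 in A20-KO, and 8.25, 7.66, and 8.77 in A20-OE. The A20-OE libraries were the lowest of all 9, and A20-KO overlapped A20-WT through A20-WT replicate 1. In A20-KO against A20-WT the log2 difference was -0.47 (adjusted p = 0.076). It passed with the length trend removed (-0.55, adjusted p = 0.0087), without A20-WT replicate 1 (-0.65, adjusted p = 0.011), and by limma-voom (adjusted p = 0.047). In A20-OE, TEAD4 fell 1.71-fold against A20-WT (log2 -0.77, interval -1.15 to -0.40, adjusted p = 0.0074), a call kept under all 20 alternative settings. A20-OE and A20-KO did not overlap, and the difference between them did not pass the test (log2 -0.30, adjusted p = 0.30).

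TEAD3, another of the 4 TEAD genes, had 11.4 ± 1.36 FPKM in A20-WT, 16.1 ± 0.736 in A20-KO, and 13.8 ± 0.934 in A20-OE. It rose in A20-KO (log2 0.50, adjusted p = 0.011), the direction opposite to that of TEAD1. The summed level of TEAD1 to TEAD4 was 52.9 ± 2.57 FPKM in A20-WT, 46.2 ± 2.01 in A20-KO, and 41.7 ± 1.07 in A20-OE, and the groups did not overlap in any pair (exact two-sided permutation p = 0.1 each). TEAD3 made up 21.4 ± 1.64% of that sum in A20-WT, 34.8 ± 1.65% in A20-KO, and 33.2 ± 3.04% in A20-OE. TEAD1 made up 36.4 ± 8.32%, 24.6 ± 5.23%, and 29.6 ± 4.36%, with overlap between groups. TEAD1 is 10279 bases long, against 3046 for TEAD3, 2980 for TEAD2, and 2272 for TEAD4. The length trend of the libraries was not removed from the TEAD3 values, the sum, or the shares given here.

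CYR61 and CTGF, now also called CCN1 and CCN2, encode secreted matricellular proteins and are the most widely used readouts of YAP and TAZ. CTGF (ENSG00000118523, chromosome 6, 131948176 to 131951373, minus strand) was measured at 2.58, 2.33, and 2.84 FPKM in A20-WT, 1.86, 1.65, and 1.36 in A20-KO, and 3.05, 2.57, and 2.53 in A20-OE. The A20-KO libraries lay below all others, and A20-OE overlapped A20-WT. CTGF fell 1.56-fold in A20-KO against A20-WT (log2 -0.64, interval -0.99 to -0.30, adjusted p = 0.016), and this held with each of the 9 libraries left out in turn (highest adjusted p = 0.046). With only the compared groups fitted its adjusted p was 0.052. It rose 1.64-fold in A20-OE against A20-KO (log2 0.71, interval 0.37 to 1.06, adjusted p = 0.024). That call was lost without A20-KO replicate 2 (adjusted p = 0.056) or 3 (0.066), or without A20-OE replicate 1 (0.11), 2 (0.078), or 3 (0.057). The direct difference of A20-OE from A20-WT was 0.07 (interval -0.27 to 0.41). An antisense RNA, AL133346.1, covers 8.34% of its exonic bases.

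CYR61 (ENSG00000142871, chromosome 1, 85580761 to 85583962, plus strand) was the more abundant of the pair. Its level was 8.04, 8.85, and 9.90 FPKM in A20-WT, 8.95, 7.87, and 8.0 in A20-KO, and 11.9, 9.59, and 13.5 in A20-OE. A20-WT and A20-KO overlapped, whereas the A20-OE libraries lay above all of A20-KO. CYR61 did not pass the test in A20-KO against A20-WT (log2 -0.11, interval -0.42 to 0.21) or in A20-OE against A20-KO (0.48, interval 0.16 to 0.79, adjusted p = 0.065). With the length trend removed the latter was 0.65 (adjusted p = 0.0082), and A20-OE against A20-WT went from 0.37 (adjusted p = 0.072) to 0.48 (adjusted p = 0.0092). Without A20-OE replicate 2 the difference from A20-WT was 0.50 (adjusted p = 0.025). The CYR61 to CTGF ratio of FPKM was 3.47 ± 0.346 in A20-WT, 5.15 ± 0.644 in A20-KO, and 4.32 ± 0.882 in A20-OE, with no overlap of A20-KO and A20-WT (exact two-sided permutation p = 0.1). That ratio was computed after the levels had been seen and holds the same CTGF values, so it adds no separate test.

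ANKRD1 (ENSG00000148677, chromosome 10, 90912096 to 90921276, minus strand), an ankyrin-repeat protein of muscle and a classical YAP target, was near the detection limit. It had 0, 4, and 1 reads in A20-WT, 4, 2, and 8 in A20-KO, and 3, 4, and 11 in A20-OE. The groups overlapped in every pair, and changes at this depth were not detectable. In the fit without a filter on low values its log2 differences were 0.57 (interval -0.32 to 1.46) for A20-KO against A20-WT and 0.18 (interval -0.71 to 1.07) for A20-OE against A20-KO. Of the 4 target genes named at the opening, ANKRD1 was thus the one that carried no usable signal here.

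AMOTL2 (ENSG00000114019, chromosome 3, 134355874 to 134375479, minus strand) encodes an angiomotin that binds YAP and activates LATS, and it is itself induced by YAP. Its level was 9.36, 9.80, and 10.2 FPKM in A20-WT, 7.45, 7.29, and 6.07 in A20-KO, and 9.86, 10.4, and 10.1 in A20-OE. All A20-KO libraries lay below all others, and A20-OE overlapped A20-WT. AMOTL2 fell 1.41-fold in A20-KO against A20-WT (log2 -0.50, SE 0.10, adjusted p = 0.0084), a call kept under all 20 alternative settings (highest adjusted p = 0.037). It rose 1.45-fold in A20-OE against A20-KO (log2 0.54, interval 0.31 to 0.77, adjusted p = 0.015), which was lost without A20-OE replicate 1 (adjusted p = 0.063) or 2 (0.065). Its direct difference of A20-OE from A20-WT was 0.04 (interval -0.18 to 0.27). The comparisons of A20-KO with A20-WT and of A20-OE with A20-KO share the 3 A20-KO libraries, for CTGF as for AMOTL2, so the fall and the rise are not independent measurements.

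AJUBA (ENSG00000129474, chromosome 14, 22971174 to 22982642, minus strand), a LIM protein that binds LATS kinases and limits them, was measured at 5.55, 8.14, and 8.90 FPKM in A20-WT, 5.64, 5.25, and 3.79 in A20-KO, and 5.30, 5.33, and 5.23 in A20-OE. A20-WT replicate 1 lay with the other groups, so that A20-KO overlapped A20-WT, and the A20-OE libraries were nearly equal (SD 0.0541). No comparison passed the test: A20-KO against A20-WT gave -0.60 (interval -1.04 to -0.16, adjusted p = 0.055), A20-OE against A20-KO 0.13, and A20-OE against A20-WT -0.47 (adjusted p = 0.098). Without A20-WT replicate 1 the first was -0.81 (adjusted p = 0.013) and the last -0.68 (adjusted p = 0.016), and by limma-voom the first had an adjusted p of 0.021.

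LATS2 (ENSG00000150457, chromosome 13, 20973032 to 21061547, minus strand), the kinase that phosphorylates YAP and TAZ and is induced by them, had the largest difference between A20-OE and A20-KO among the 9 genes. Its level was 4.69, 4.76, and 4.27 FPKM in A20-WT, 3.86, 4.90, and 3.42 in A20-KO, and 7.90, 7.56, and 6.83 in A20-OE. The A20-OE libraries lay above all others, and A20-KO overlapped A20-WT. LATS2 rose 1.83-fold in A20-OE against A20-KO (log2 0.87, interval 0.56 to 1.18, adjusted p = 0.0087) and 1.61-fold against A20-WT (log2 0.69, interval 0.38 to 1.00, adjusted p = 0.0051). The second call was kept under all 20 alternatives, and the first under 19, with an adjusted p of 0.051 without A20-OE replicate 1. A20-KO against A20-WT gave -0.18 (interval -0.49 to 0.13). Its paralogue LATS1 passed no test, and the LATS2 to LATS1 ratio of FPKM was 1.32 ± 0.156 in A20-WT, 1.54 ± 0.147 in A20-KO, and 2.49 ± 0.29 in A20-OE, with A20-OE above both (exact two-sided permutation p = 0.1 each). That ratio was computed after the levels had been seen and holds the same LATS2 values, so it adds no separate test.

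**Figure D3:**
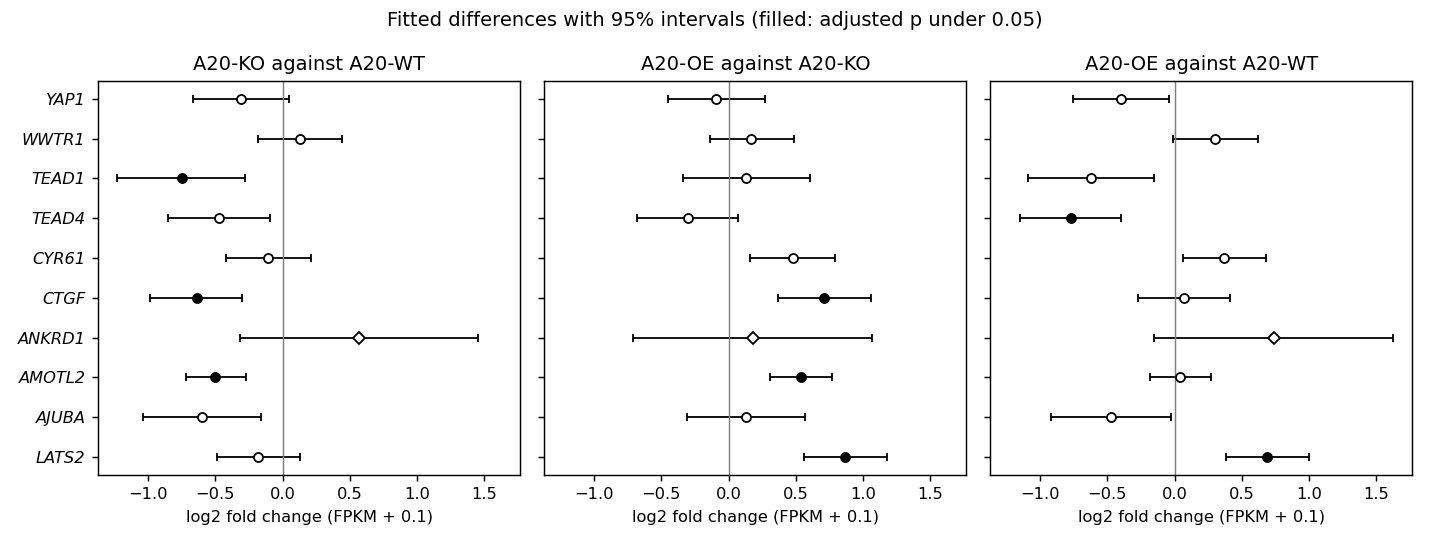
Fitted log2 fold change (x axis, on log2(FPKM + 0.1)) with its 95% interval for the 10 genes (rows) in the 3 comparisons (panels). Filled points have an adjusted p under 0.05, and diamonds mark ANKRD1, taken from the fit without a filter on low values. CTGF and AMOTL2 are filled on the left of 0 in A20-KO against A20-WT and on the right in A20-OE against A20-KO, and LATS2 is filled in both A20-OE comparisons.

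The genes did not share a single pattern. CTGF and AMOTL2 were lowest in the A20-KO libraries and overlapped between A20-OE and A20-WT. LATS2 was above both other groups in all A20-OE libraries, and TEAD4 was below both and passed the test against A20-WT. All A20-KO and A20-OE libraries had less TEAD1 than any A20-WT library (log2 -0.75, adjusted p = 0.031, and -0.62, adjusted p = 0.051). The A20-KO call was kept under 13 of the 20 alternatives. TEAD1 in A20-OE did not differ from A20-KO past the test (0.13, adjusted p = 0.74). Leaving out A20-OE replicate 1 left 0 of the 9 genes past the test in A20-OE against A20-KO (LATS2 at 0.051, AMOTL2 at 0.063, CTGF at 0.11), with log2 differences of 0.82, 0.56, and 0.63. The share of all genes past the test fell to 2.1% in that fit. Without A20-KO replicate 3, AMOTL2 and LATS2 still rose in A20-OE against A20-KO (log2 0.45, adjusted p = 0.029, and 0.76, adjusted p = 0.024).

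The genes with the pattern most like YAP1 over the 9 libraries, among 12796 genes of at least 1 FPKM, were LEMD3, GOLIM4, IRGQ, RAB23, and MEX3C, with a root mean square difference of centred log2(FPKM + 0.1) from 0.0474 (LEMD3) to 0.0736 (MEX3C). LEMD3 had 8.19, 6.84, and 6.52 FPKM on average in A20-WT, A20-KO, and A20-OE. For LATS2 they were ZBTB25, FOXO3, the noncoding RNA NORAD, MPP5, and RBPJ, with differences from 0.0859 (ZBTB25) to 0.108 (RBPJ). FOXO3 had 11.6, 10.3, and 17.7 FPKM on average in the same order.

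Of 19 other genes commonly listed as YAP and TAZ targets, 17 were expressed, FOXF2 being at 0 reads in all libraries. In A20-KO against A20-WT their median log2 difference was -0.46, against -0.01 for all genes tested. The 9 genes above, which also include the coactivators and TEAD factors, had a median of -0.47. Of the 17 other targets, 4 fell and 2 rose, against 11% lower and 11.3% higher among all genes tested. Those that fell included the matrix protein THBS1 (log2 -0.79, adjusted p = 0.023) and F3, tissue factor (-0.55, adjusted p = 0.0053). TGFB2 also fell (-1.27, adjusted p = 0.049) but rested on few reads. It had 40, 31, and 19 reads in A20-WT (mean 0.234 FPKM) and 2, 9, and 3 in A20-KO (mean 0.0373 FPKM). GADD45A, a stress-response gene, rose (0.68, adjusted p = 0.0055), as did ARHGEF17 (0.39, adjusted p = 0.039).

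In A20-OE against A20-KO, 4 of the 17 rose and 0 fell, against 4.43% higher and 4.54% lower among all genes tested. The medians were 0.36 and 0.01. IGFBP3, which encodes a binding protein of insulin-like growth factors, went from 0.684, 0.454, and 0.413 FPKM in A20-KO to 3.88, 3.68, and 4.11 in A20-OE (log2 2.72, adjusted p = 0.0004), having been between 0.271 and 0.37 in A20-WT. F3 was 8.80, 7.85, and 8.67 in A20-KO and 15.5, 13.8, and 15.8 in A20-OE (log2 0.83, adjusted p = 0.0029). MYOF rose as well (0.41, adjusted p = 0.045). F3, like CTGF and AMOTL2, was lower in all A20-KO libraries than in all others, whereas IGFBP3, like LATS2, was highest in A20-OE. In A20-OE against A20-WT, 4 of the 17 rose (IGFBP3, GADD45A, ARHGEF17, and MYOF) and 3 fell (FJX1, NT5E, and NUAK2). Among all genes tested, 15.7% were higher and 15.4% lower in that comparison.

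**Figure D4:**
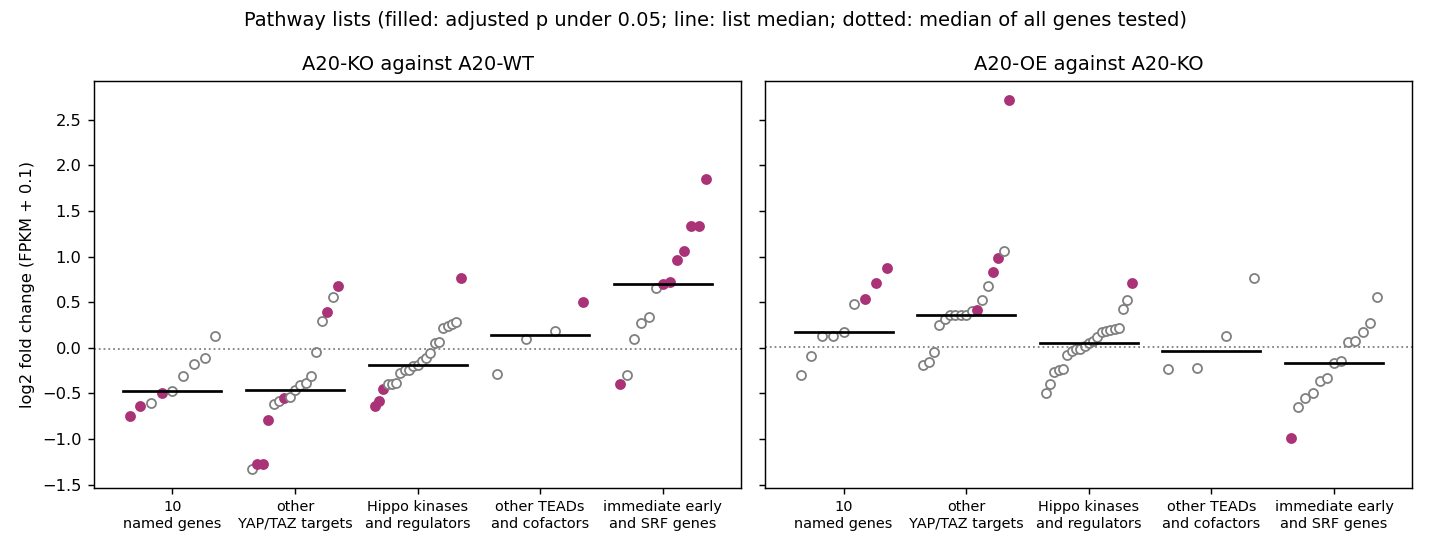
Fitted log2 fold change (y axis) of each tested gene of 5 lists (x axis) in A20-KO against A20-WT (left) and A20-OE against A20-KO (right), filled where the adjusted p was under 0.05. The list medians (lines) of the 10 named genes and of the other targets are -0.47 and -0.46 on the left and 0.17 and 0.36 on the right, and the immediate early and SRF genes lie at 0.70 and -0.17.

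The 21 further Hippo kinases, adaptors, and upstream regulators were all expressed. In A20-KO against A20-WT 4 of the 21 passed, near the 22.3% of all genes tested. Without A20-KO replicate 3, 2 of the 21 passed, and the share of all genes was 16.3%. In the full set 3 fell, the LATS-binding LIM protein LIMD1 (log2 -0.64, adjusted p = 0.042), the YAP-binding phosphatase PTPN14 (-0.58, adjusted p = 0.027), and the kinase MAP4K4 (-0.45, adjusted p = 0.01), and 1 rose, the polarity gene CRB3 (0.76, adjusted p = 0.0085). In A20-OE against A20-KO only MOB1B, a LATS activator, rose (0.71, adjusted p = 0.043; 0 of the 21 passed with no filter on low values or with values scaled to total reads). Over all genes tested, 8.97% passed in that comparison in the main fit, and the share in those alternative fits is not given. The medians of the 21 genes in these 2 comparisons were -0.19 and 0.05. In A20-OE against A20-WT, 1 of the 21 rose (CRB3) and 2 fell (MAP4K4 and NF2), a lower share than the 31.1% of all genes tested that passed. Of 5 further TEADs and cofactors 4 were expressed, VGLL1 having at most 2 reads in any library, and TEAD3 in A20-KO was the only one past the test in the 3 comparisons.

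CTGF and CYR61 also respond to serum and to SRF, so 14 immediate early and SRF target genes were examined beside them, and 13 were expressed. In A20-KO against A20-WT, 7 rose and 1 fell (ATF3, log2 -0.40, adjusted p = 0.03), with a median of 0.70. Over all genes tested, 11.3% were higher and 11% lower, with a median of -0.01. The AP-1 gene JUNB went from 34.1 ± 7.23 FPKM in A20-WT to 122 ± 14.9 in A20-KO (log2 1.85, adjusted p = 0.00021), and FOS (1.34, adjusted p = 0.00048), EGR1 (1.34, adjusted p = 0.0019), and IER2 (1.06, adjusted p = 0.0088) were higher as well. In A20-OE against A20-KO only EGR1 of the 13 passed, against 8.97% of all genes tested, and it fell (log2 -0.99, adjusted p = 0.018). In A20-OE against A20-WT, 5 of the 13 were higher and 0 lower, against 15.7% and 15.4% of all genes tested. These included JUNB (1.68, adjusted p = 0.00012) and FOS (1.40, adjusted p = 0.00015), whereas EGR1 did not pass (0.35, adjusted p = 0.21). The summed level of the 14 genes lay between 498 and 595 FPKM in A20-WT, 815 and 1061 in A20-KO, and 623 and 771 in A20-OE. Among 7 expressed epithelial markers, 2 rose in A20-KO against A20-WT and 0 fell, where 11.3% and 11% of all genes tested did so. They were KRT20 (log2 2.19, adjusted p = 2.9e-05) and KRT19 (1.02, adjusted p = 0.0062), and COL1A1 rose by 1.31 (adjusted p = 0.00026). The part of these genes in the differences of CTGF, AMOTL2, and TEAD1 was not tested. With the gene length trend removed, A20-KO differed from A20-WT by -0.72 for CTGF (adjusted p = 0.02), -0.41 for AMOTL2 (adjusted p = 0.0078), and -0.63 for TEAD1 (adjusted p = 0.016).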

How the data were processed

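RNA-seq was performed on 9 libraries of HCT116 cells. The authors aligned the reads with HISAT2 (version 2.0.5) and counted them with featureCounts (version 1.5.0-p3), per the submitters' processing notes, and deposited FPKM per gene; the strand setting and the build were not given in the sources used here. All gene identifiers and coordinates matched GENCODE 29 (GRCh38). FPKM times gene length gave whole reads, within 0.05 read, for 100% of the values above 0. Genes with a mean of at least 0.1 FPKM (21636) were log2-transformed after adding 0.1 and tested with limma (version 3.58.1; R, version 4.3.3), with its prior variance following expression and all 3 groups in one fit, and Benjamini-Hochberg adjustment over all genes tested. A gene was taken as changed at an adjusted p under 0.05, and the background also counts those with an absolute log2 fold change above 1. Fold changes understate low genes. Intervals cover the spread between libraries. The scripts were tested on simulated data.

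The 10 genes and the other lists were chosen with earlier results of these data known. Named from the other lists were at most the 4 largest changes past the test in A20-KO against A20-WT and in A20-OE against A20-KO, and genes at 0 or under 3 reads; TEAD2, LATS1, ARHGEF17, ATF3, NF2, FJX1, NT5E, NUAK2, EPCAM, KRT8, CDX2, and VIL1, and the ratios, were added after their values were seen. A gene of the other-target list is not reported here, and the counts over that list include it. The genes most like YAP1 and LATS2 were ranked by root mean square difference. Alternatives were the pseudocount, the filter, median-of-ratios scaling, 2 groups only, the replicate block, limma-voom on recovered reads, and each library left out. Scaling to total reads and removal of the gene length trend were chosen after seeing the data. The labels name no batch. Promoter sequences are from RefSeq (GRCh38.p14).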

Additional observations from a re-analysis of the deposited data

How the results depend on the processing

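Over the 9 expressed genes, 3 comparisons, and 20 alternatives, 485 of 540 values kept direction and side of the threshold, 16 lost the call, 33 gained it, and 6 changed sign, none of them called: YAP1 in A20-OE against A20-KO (0.02 without A20-KO replicate 2, range -0.28 to 0.02 with 1 library left out), TEAD1 and AJUBA in the same comparison (-0.06 and -0.04 without A20-KO replicate 3, ranges -0.06 to 0.30 and -0.04 to 0.24), CTGF in A20-OE against A20-WT (-0.00 without A20-WT replicate 2, -0.01 without A20-OE replicate 1, range -0.01 to 0.14), and AMOTL2 there (-0.02 scaled to total reads). The deposited values have the same median-of-ratios factor in every library, so that scaling acts only through the pseudocount, and it altered no call of the 10 genes. Below, i, ii, and iii are A20-KO against A20-WT, A20-OE against A20-KO, and A20-OE against A20-WT. In i, ii, and iii, 1512, 517, and 2571 genes passed both the adjusted p and the fold limit; a pseudocount of 1 gave 472, 155, and 976, and a mean of at least 1 FPKM 931, 289, and 1555. Of the 10 genes, 3, 3, and 2 passed; with only 2 groups fitted 1 passed in i and 4 in iii, limma-voom gave 5 in i, and iii had 4 with the replicate block (YAP1, adjusted p = 0.027, and TEAD1, 0.0064, being added), 5 with the length trend removed, and 6 with both. Of the 21 Hippo regulators 4, 1, and 3 passed; 2 groups only gave 2 and 4 in i and ii, limma-voom 2 and 6 in ii and iii, no filter or total reads 0 in ii, the block 2 in ii, length removal 3 and 5 in ii and iii, and length removal with the block 2 and 5. Of the 17 other targets 6, 4, and 7 passed; the block and limma-voom each gave 11 in i, length removal 10 and 8 in i and ii, and that with the block 13 and 8. With 1 library left out, the genes past both limits ranged from 1186 to 1765, 242 to 612, and 2266 to 2568, the 10 genes from 2 to 4, 0 to 4, and 2 to 5, the Hippo regulators from 2 to 4, 0 to 4, and 1 to 6, and the other targets from 3 to 7, 3 to 7, and 4 to 8. The share of all genes past the adjusted p threshold moved too, from 14.4% to 22.9%, 2.1% to 15%, and 22.3% to 32.4% in i, ii, and iii. In ii, 0 of the 10 genes passed without A20-OE replicate 1 (2.1% of all genes) and 1 (LATS2) without A20-OE replicate 2 (2.44%). In i, 2 passed without A20-KO replicate 1 (14.4%) or 3 (16.3%), A20-WT replicate 2 (15.9%), or A20-OE replicate 1 (18%). In iii, 5 passed without A20-KO replicate 3 (32.4%). For the alternatives that keep all libraries, the share of all genes is not given. Those counts therefore show no trait of the listed genes. The cause of the differences between fits was not tested. Libraries with the same replicate number deviated together weakly at most, with correlations of -0.027 to 0.121 over 9 pairs (mean 0.0366). The 18 pairs with different numbers had -0.131 to 0.0722 (mean -0.0183). The highest values were those of replicate 3, 0.121 for A20-KO with A20-OE and 0.0976 for A20-WT with A20-KO. A shared shift of the replicate 3 libraries is thus not excluded. The labels do not say what the numbers stand for, so the main fit does not pair the libraries, and the replicate block is given as an alternative. With 3 libraries a group, fold changes as small as those here lie near the limit of the test, and ANKRD1, with 37 reads in all, cannot be resolved.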
